A study of Mus musculus with 12 samples.

Results

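The genes described here are the 44 mouse collagen chain genes, the genes whose symbols name a chain of a collagen type. They were chosen by symbol from the GENCODE M21 annotation and not by any measured value, and all 44 were found among the 52636 gene identifiers of the count files. For description they were sorted by the kind of collagen they build, into 11 fibrillar genes, 8 basement membrane genes and 25 others. RNA was sequenced from lymphatic endothelial cells (LECs) of the lungs of Prox1-EGFP mice, in which regulatory sequence of the lymphatic factor gene Prox1 drives a green fluorescent protein. All mice carried this reporter, and exposure began at 6 weeks of age. In the acute arm, mice breathed cigarette smoke (CS) on 5 days a week for 8 weeks (2 libraries, F and M) or room air (RA) for the same time (2 libraries, F and M), and each library pooled cells of 2 to 5 mice. In the chronic arm, exposure lasted 24 weeks or more, with 5 CS libraries (F, M1, M2, M3 and M4) and 3 age-matched RA libraries (F, M1 and M2) from cells that were not pooled. F and M are the sexes in the labels. Cells were sorted as positive for CD31 and green fluorescence and negative for EpCAM and for a cocktail of blood lineage markers, a gate that holds no negative marker for fibroblasts, mural cells or other mesenchymal cells.

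Collagens are trimeric extracellular proteins whose chains wind into a triple helix, with a small glycine residue at each inward position of the helix. Fibrillar collagens such as types I, III and V form the banded fibrils of connective tissue, which in lung are laid down mainly by fibroblasts and mural cells. Type IV collagen forms a sheet-like network in the basement membrane under endothelium and epithelium, while other family members bind to fibrils, form fine filaments or span the cell membrane.

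This division can be seen in the coding sequences of the reference transcripts (GENCODE M21, GRCm38), in which the helix appears as a run of glycine codons, GGN, each followed by 2 other codons. Stretches of codons 164 to 181 of Col3a1, 1233 to 1250 of Col4a1 and 110 to 127 of Col23a1 are shown for a fibrillar, a basement membrane and a transmembrane chain, with the glycine codons in capitals.
Col3a1: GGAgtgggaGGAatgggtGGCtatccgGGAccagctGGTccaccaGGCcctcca
Col4a1: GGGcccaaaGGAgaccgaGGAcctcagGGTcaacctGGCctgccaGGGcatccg
Col23a1: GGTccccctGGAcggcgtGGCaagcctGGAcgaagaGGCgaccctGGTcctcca
The longest unbroken run of such triplets was 344 in Col3a1, 338 in Col1a1 and 339 in Col1a2, while Col24a1 and Col27a1, also fibrillar, had runs of 216 and 217. In Col4a1 the longest run was 40 triplets, and 22 runs of 5 or more were separated by interruptions. Col23a1 had 5 such runs, the longest of 43 triplets. Among the type VI genes the run was 87 triplets in Col6a1 and in Col6a2 and 45 in Col6a3.

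Expression is given in CPM, read counts scaled to a common library size with edgeR's TMM factors, and levels of different genes are compared only in FPKM, which also divides by exon length. Values of libraries are always listed in the order F, M in the acute groups and F, M1, M2, M3, M4 in the chronic groups. The shallowest library, chronic CS F, held 18821438 counts and the deepest, acute RA F, 56998590. The chronic CS libraries fall into F, M1 and M2 with 18821438 to 22885446 counts and M3 and M4 with 45436986 and 47494020 counts. A count of 3, the limit that a count of 0 allows, equals 0.158 CPM in the shallowest and 0.0507 CPM in the deepest library, for counting error only. The collagen chain genes held 0.137% to 0.25% of a library's counts. The summed level of 8 lymphatic endothelial markers was 14900 to 22930 CPM in RA and chronic CS libraries but 6485 and 9822 CPM in the acute CS libraries. All 8 were counted in each group.

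In room air LECs, collagen expression was dominated by 4 genes. Over the 5 RA libraries the highest mean was that of Col23a1, a transmembrane collagen, at 107 FPKM (67.8 to 162). It was followed by Col4a1, a chain of the type IV network, at 83.8 FPKM (53.5 to 105), by Col18a1, whose product releases endostatin, at 47.1 FPKM (21.6 to 63.6), and by Col4a2, the partner chain of Col4a1, at 39.4 FPKM (26.8 to 47.2). The ranges of neighbours in this order overlapped. Together these genes held 87.4% to 96.3% of the members' summed FPKM in the RA libraries.

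The next genes lay far below, with means of 3.09 FPKM for Col3a1, 2.45 for Col16a1, 2.12 for Col6a1, 1.83 for Col1a2 and 1.81 for Col5a2, and again with overlapping ranges. Counts were present in every library for 26 of the 44 genes, and 14 had a mean over all libraries under 1 CPM. The filter on low counts was passed by 38 genes, 8 of 11 fibrillar, 8 of 8 basement membrane and 22 of 25 others. The filter asks for counts in as many libraries as the smallest group holds, so that a member could pass through the group in which it was high.

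**Figure D1:**
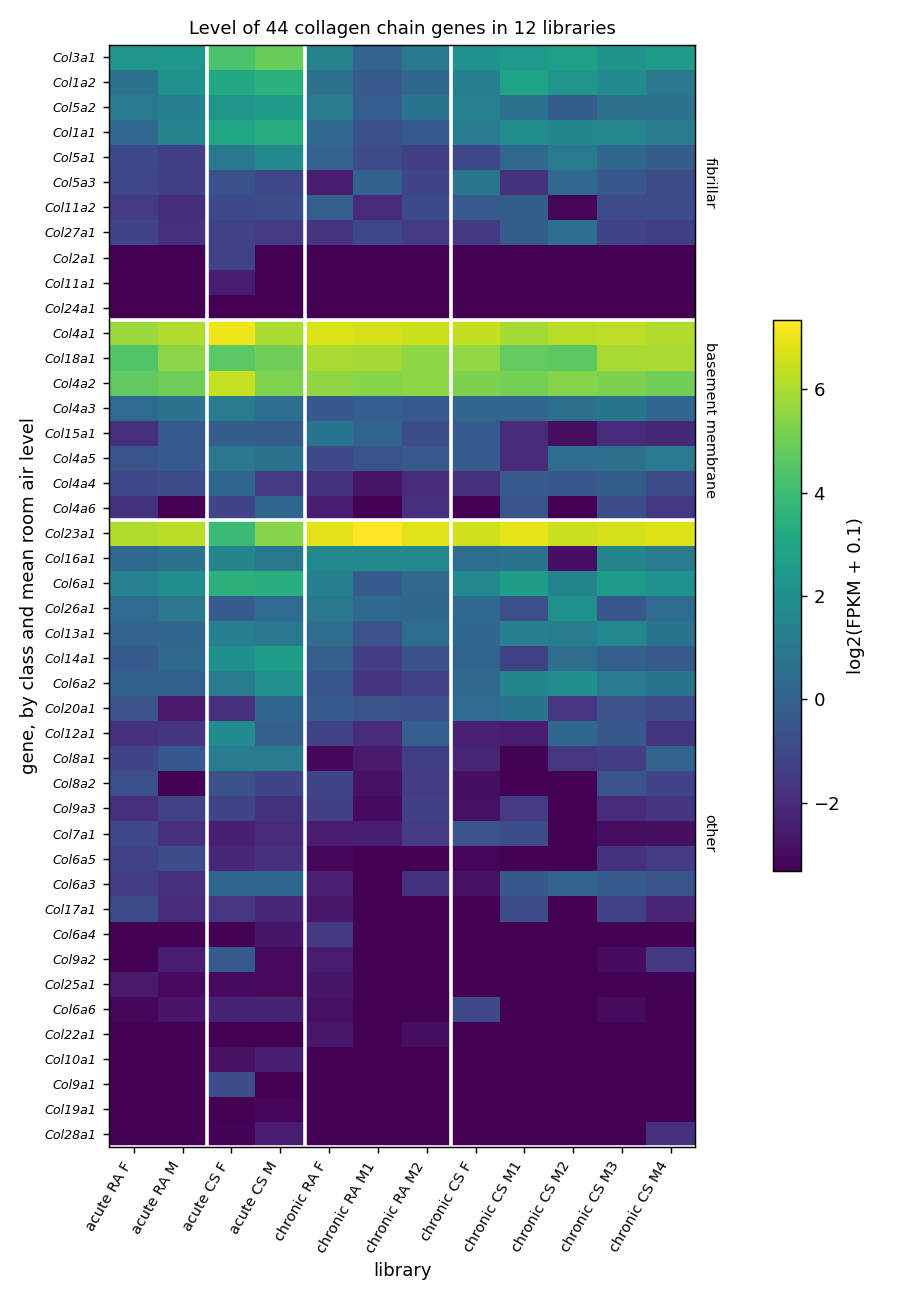
Heat map of the level of the 44 collagen chain genes (y axis, by class and mean RA level) in the 12 libraries (x axis), as log2(FPKM + 0.1). Col4a1, Col18a1, Col4a2 and Col23a1 are bright in every library, while Col3a1 is brightest in the acute CS libraries at 19.9 and 29.2 FPKM.

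The acute comparison asked whether LEC RNA after 8 weeks of smoke differed from that of age-matched mice in room air. Of the collagen genes, 2 fibrillar members rose: Col3a1 by a log2 fold change of 2.30 and Col1a1 by 2.23. A gene was called when edgeR's quasi-likelihood test gave an adjusted p (Benjamini-Hochberg, over 21440 genes tested) under 0.05. By this rule 2.75% of all genes tested were called higher and 0.723% lower, against 2 members higher and none lower. DESeq2 called 10 members, 9 higher and Col23a1 lower, beside 9.07% of all genes it tested. An unadjusted p under 0.05 was reached by 12 members (11 higher, 1 lower), or 31.6%, beside 15.7% of all genes tested. The acute groups did not overlap for 20 members that were higher in CS and 3 that were lower, or 52.6% and 7.89%, beside 27.4% and 22.5% of all genes tested. Of 38 members that passed the filter the median log2 fold change was 1.02, or 1.03 with members at 0 in a whole group set to the bound of 3 counts, and that of all genes tested was 0.04. In bulk RNA, fewer cells of a type and less RNA per cell cannot be told apart, and neither can more of them.

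Markers of other cell types moved with these groups. For 10 mural and smooth muscle markers, the summed level was 25.6 to 52.6 CPM in the RA libraries, 323 and 298 CPM in acute CS, and 86.4 to 181 CPM in chronic CS. In the acute comparison all 10 were apart and higher, and 4 were called. Acta2, encoding smooth muscle actin, was counted at 9.597 and 30.6 CPM in acute RA and at 106 and 140 CPM in acute CS. The sum of 12 fibroblast markers was 1166 and 1133 CPM in acute RA and 1512 and 2814 CPM in acute CS, with 3 called higher. In the chronic arm it was 515 to 606 CPM in RA and 746 to 1425 CPM in CS. Gsn alone held 358.4 and 362.5 CPM of the fibroblast sum in acute RA and 884 and 1768 CPM in acute CS. None of these 22 markers was at 0 in a whole group. The sum of 11 macrophage and leukocyte markers was 198 to 561 CPM in RA and 7167 and 4219 CPM in acute CS, and that of 10 alveolar epithelial markers was 6592 CPM in the F but 263 CPM in the M library of acute CS, beside 257 to 1082 CPM in RA. The sum of 10 blood endothelial markers, of cells that carry CD31 and that the gate holds back by its demand for green fluorescence from Prox1 and not by a negative marker, was 7161 to 8776 CPM in RA, 12080 and 10150 CPM in acute CS and 7007 to 8516 CPM in chronic CS. In the acute comparison 6 of them were called higher, namely Vwf (log2 fold change 4.98, edgeR's adjusted p = 0.00258), Ptprb, Car4, Aplnr, Ednrb and Sema3c, and none lower. Kdr and Cldn5 were apart and lower, with log2 differences of -0.39 and -0.09, and Plvap overlapped (0.14). Plvap, Kdr and Cldn5 were the highest of the list in acute RA, at 2127 and 3053, 2273 and 2522, and 2057 and 2169 CPM. None of the 10 was at 0 in a whole group. The part of these markers in the collagen results was not tested.

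Among fibrillar genes, Col3a1 (ENSMUSG00000026043, chromosome 1 of GRCm38, 45311538 to 45349706), encoding the single chain of type III collagen, was counted at 48.2 and 49.7 CPM in acute RA and at 196 and 287 CPM in acute CS. Both CS libraries lay far above both RA libraries. The difference had a standard error (SE) of 0.38 on the log2 scale and an adjusted p of 0.00947 by edgeR (quasi-likelihood test, Benjamini-Hochberg adjustment). Col1a1 (ENSMUSG00000001506, chromosome 11, 94936224 to 94953042), for the major chain of type I collagen, was at 7.65 and 17.2 CPM in acute RA and at 51.2 and 65.5 CPM in acute CS. These groups were also apart, with an SE of 0.46 and an adjusted p of 0.0237 by the same test. Both calls rested on few libraries. With a block for same-numbered libraries neither was called, and the log2 differences hardly moved. They were 2.275 for Col3a1 (edgeR's adjusted p = 0.0791) and 2.332 for Col1a1 (edgeR's adjusted p = 0.116). Col1a1 was no longer called without any 1 of the acute libraries (adjusted p = 0.0725 to 0.194 by edgeR, log2 differences of 1.76 to 2.896) or in a fit of the acute groups alone (0.11, log2 difference 2.22). Col3a1 was no longer called without acute RA F (adjusted p = 0.0994 by edgeR) or acute RA M (0.112), with log2 differences of 2.28 and 2.29 that hardly moved, and stayed called without either CS library. A fit without 1 acute library leaves 1 library in a group and takes its spread from the other groups. Over all genes, 79 were called without acute RA F and 3 without acute RA M, against 745.

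Col1a2, Col5a1 and Col5a2 did not pass the adjusted limit in edgeR, although their acute groups were apart. DESeq2 called Col1a2 (adjusted p = 0.047) and Col5a1 (0.000881), and edgeR called Col5a1 with no filter on low counts (0.0329), without chronic CS F (0.0334) and without chronic CS M2 (0.0304). Col1a2, the second chain of type I collagen, was counted at 18.9 and 54.5 CPM in acute RA and at 106 and 140 CPM in acute CS, a log2 difference of 1.75 (SE 0.65, edgeR's adjusted p = 0.207). Col5a1, a chain of the type V collagen that nucleates fibrils, was at 3.43 and 2.59 CPM in acute RA and at 15.5 and 28.4 CPM in acute CS, a log2 difference of 2.87 (SE 0.73, edgeR's adjusted p = 0.0575). Its partner Col5a2 was at 18.9 and 23.97 CPM in acute RA and at 46.8 and 54.8 CPM in acute CS, a log2 difference of 1.24 (SE 0.49, edgeR's adjusted p = 0.239). The acute RA values of Col1a2 lay further apart than those of Col3a1 or Col5a2. With 2 libraries a group, an exact two-sided permutation test of a single gene cannot go below a p of 0.333. The remaining fibrillar members that passed the filter, Col5a3, Col11a2 and Col27a1, had means of 2.28, 1.497 and 3.57 CPM in acute RA and 3.14, 3.05 and 3.84 CPM in acute CS, and of these Col11a2 alone was apart.

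Promoter windows of Col3a1 and Col1a2 are shown because the levels of type III and type I genes were apart in the same direction. They run from 250 bases before to 50 after the start in the RefSeq table for GRCm38.p6, at chr1:45311288-45311587 and chr6:4505368-4505667, both on the plus strand. Capitals mark CCAAT or TATAAA on either strand.
Col3a1: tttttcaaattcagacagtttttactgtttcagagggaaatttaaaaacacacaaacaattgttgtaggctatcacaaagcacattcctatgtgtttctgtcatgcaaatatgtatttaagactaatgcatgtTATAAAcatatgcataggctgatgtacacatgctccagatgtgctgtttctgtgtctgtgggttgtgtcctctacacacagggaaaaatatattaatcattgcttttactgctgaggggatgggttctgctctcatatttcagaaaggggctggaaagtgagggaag
Col1a2: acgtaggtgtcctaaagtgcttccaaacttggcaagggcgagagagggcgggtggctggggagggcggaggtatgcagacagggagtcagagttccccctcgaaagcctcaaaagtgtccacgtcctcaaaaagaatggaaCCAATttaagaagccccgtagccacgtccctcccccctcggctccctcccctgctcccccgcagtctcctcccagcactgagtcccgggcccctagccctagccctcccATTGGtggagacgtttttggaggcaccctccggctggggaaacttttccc
The Col3a1 window held TATAAA with its first base at position -117 from the start, and the Col1a2 window held CCAAT at position -109 and, on the minus strand, at position 0. Windows were found for 35 members (38 windows), not for Col1a1, Col2a1, Col4a3, Col5a2, Col9a3, Col12a1, Col14a1, Col22a1 and Col26a1. CCAAT was present in 13 of the 38 windows and in 37.4% of all 32851 windows of the table. TATAAA was present in 5 and in 13.6%, and GGGCGG in 23 and in 35.7%, all counted on both strands. A match is a description of the letters only.

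Of the basement membrane genes none was called by edgeR in the acute comparison, and DESeq2 called Col4a2 (adjusted p = 0.00544). Col4a1 was counted at 400 and 508 CPM in acute RA and at 996 and 471 CPM in acute CS. The CS libraries thus disagreed, with F above both RA libraries and M between them. Col4a2 was at 178 and 218 CPM in acute RA and at 563 and 257 CPM in acute CS, so that the groups were apart but the CS libraries differed by more than the RA libraries. The log2 difference was 0.69 (SE 0.28, edgeR's adjusted p = 0.253) for Col4a1 and 1.05 (SE 0.28, edgeR's adjusted p = 0.0683) for Col4a2. With no filter on low counts edgeR called Col4a2 as well (adjusted p = 0.0446). Without acute CS M the log2 differences were 1.135 for Col4a1 and 1.507 for Col4a2. That fit holds 1 acute CS library and takes the spread from the other groups. Acute CS F, the library with the high type IV levels, was also the one with 6592 CPM of alveolar epithelial markers. Of the blood endothelial markers, Car4 (670 against 292 CPM), Aplnr (470 against 157 CPM) and Sema3c (957 against 240 CPM) were above M in F. So were Gpihbp1, Ednrb, Ptprb, Cldn5 and Kdr, while Vwf (1075 against 1829 CPM) and Plvap (2719 against 3006 CPM) were below M. The part of these markers in the type IV levels was not tested.

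Col18a1 was counted at 152 and 313 CPM in acute RA and at 172 and 226 CPM in acute CS, with both CS values inside the RA range. Its log2 difference was -0.23 (SE 0.46, edgeR's adjusted p = 0.913). The minor type IV genes Col4a3, Col4a4, Col4a5 and Col4a6, chains of the networks of specialised basement membranes such as that of the kidney glomerulus, and Col15a1 had log2 differences from 0.31 to 2.90 with adjusted p-values from edgeR of 0.497 or more. Of these, Col4a5, Col4a6 and Col15a1 were apart and higher in CS.

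Col4a1 and Col4a2 lie head to head on chromosome 8 (Col4a1 from 11198423 to 11312826 on the minus strand, Col4a2 from 11312805 to 11449287 on the plus strand) and share a promoter region. Their RefSeq windows, chr8:11312777-11313076 on the minus strand and chr8:11312555-11312854 on the plus strand of GRCm38.p6, are shown for that reason, with the 78 bases that they share in capitals.
Col4a1: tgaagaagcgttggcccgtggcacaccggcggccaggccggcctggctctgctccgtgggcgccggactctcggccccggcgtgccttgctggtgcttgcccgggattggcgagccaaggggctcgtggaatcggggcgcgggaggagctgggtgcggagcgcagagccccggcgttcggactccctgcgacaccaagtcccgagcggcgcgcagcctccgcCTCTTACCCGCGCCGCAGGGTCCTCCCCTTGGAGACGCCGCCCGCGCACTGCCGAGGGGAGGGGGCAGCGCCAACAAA
Col4a2: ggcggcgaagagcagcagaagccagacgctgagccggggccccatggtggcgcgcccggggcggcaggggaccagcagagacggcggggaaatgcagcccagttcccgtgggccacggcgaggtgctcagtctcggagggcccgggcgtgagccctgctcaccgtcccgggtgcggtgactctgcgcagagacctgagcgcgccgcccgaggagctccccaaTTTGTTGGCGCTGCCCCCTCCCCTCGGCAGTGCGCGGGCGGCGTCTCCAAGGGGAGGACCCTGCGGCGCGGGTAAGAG
The exons of the pair overlap by 22 bases on opposite strands, 0.3% of the exonic length of each. In FPKM, Col4a1 stood above Col4a2 by a factor of 1.57 to 2.30 in the 12 libraries (median 2.01), with the 2 lowest ratios, 1.57 and 1.63, in acute CS. For comparison, the factor in FPKM of Col4a3 over Col4a4, also neighbours on opposite strands but with far lower levels, ranged from 1.37 to 15.9.

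Type VI collagen, which forms beaded filaments around cells and next to basement membranes, was at higher levels in acute CS in its 3 main chains. Col6a1 was counted at 11.1 and 16.2 CPM in acute RA and at 50.0 and 47.4 CPM in acute CS, a log2 difference of 1.83 (SE 0.54, edgeR's adjusted p = 0.103). Col6a2 was at 7.49 and 7.40 CPM in acute RA and at 18.4 and 34.6 CPM in acute CS, a log2 difference of 1.83 (SE 0.59, edgeR's adjusted p = 0.139). Col6a3 was at 3.45 and 2.01 CPM in acute RA and at 13.0 CPM in both CS libraries (log2 difference 2.25, SE 1.33, edgeR's adjusted p = 0.48). Each of these groups was apart, and none passed the adjusted limit in edgeR, while DESeq2 called Col6a1 (adjusted p = 0.00954) and Col6a2 (0.0236).

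Among the collagens that bind to fibrils, Col14a1 was counted at 5.05 and 8.29 CPM in acute RA and at 27.6 and 42.3 CPM in acute CS, a log2 difference of 2.39 (SE 0.64, edgeR's adjusted p = 0.0714). Col12a1 was at 2.86 and 3.24 CPM in acute RA and at 52.1 and 13.3 CPM in acute CS, a log2 difference of 3.42 (SE 1.29, edgeR's adjusted p = 0.213). DESeq2 called both (adjusted p = 0.00262 and 0.0248), and edgeR called Col14a1 with no filter (0.048) and without chronic CS M1 (0.0403). Both were apart, but the CS libraries of Col12a1 lay far from each other. Col16a1 was at 7.74 and 10.4 CPM in acute RA and at 18.8 and 12.5 CPM in acute CS, a log2 difference of 0.79 (SE 1.03, edgeR's adjusted p = 0.834). Col8a1, a chain of the short-chain network found in vessel walls, was at 2.94 and 5.01 CPM in acute RA and at 16.9 and 17.4 CPM in acute CS, with a log2 difference of 2.11 (SE 1.4995, edgeR's adjusted p = 0.591).

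Col23a1 (chromosome 11, 51289920 to 51583918), the most abundant member per length in room air, went the other way. It was counted at 389 and 434 CPM in acute RA and at 87.1 and 244 CPM in acute CS, so that both CS libraries lay below both RA libraries but far from each other. The log2 difference was -1.31 (SE 0.37, edgeR's adjusted p = 0.0865). DESeq2 called it (adjusted p = 0.00556), as did edgeR with no filter (0.038) and with sex as a covariate (0.0481). With acute CS F as the only acute CS library its log2 difference was -2.24, while acute CS M, at 244 CPM, lay nearer to the acute RA values. The other members that were apart and lower in acute CS were Col6a5 and Col7a1, at 1.49 and 1.22 CPM on average there. Beside Col23a1, the lymphatic marker sum was also lower in acute CS, at 6485 CPM in F and 9822 CPM in M. Of the 8 markers, 7 were apart and lower, and 3 of these were called. Lyve1 went the other way, apart and higher in acute CS (log2 difference 0.668, edgeR's adjusted p = 0.307). Mmrn1 was the highest of the list in every library. The part of these markers was not tested.

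**Figure D2:**
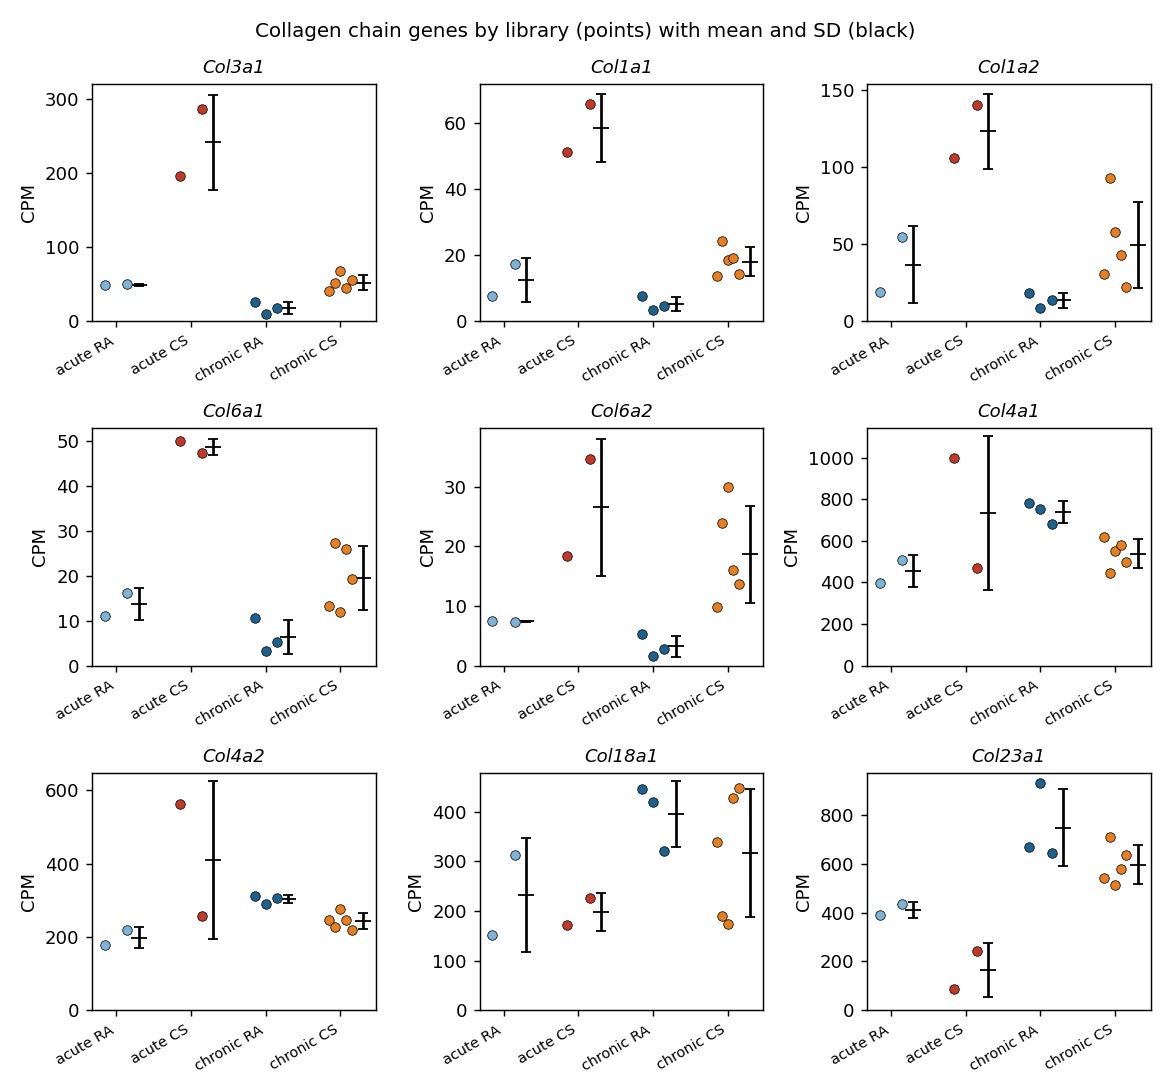
Level in CPM (y axis, from 0) of 9 collagen chain genes in each library (points) by group (x axis), with the mean and SD of the group in black. The acute CS points of Col3a1, at 196 and 287 CPM, lie above all others, and those of Col23a1, at 87.1 and 244 CPM, lie below all others.

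The chronic comparison asked the same of LECs after 24 weeks or more of smoke. The genes of types I and III, with Col6a1 and Col6a2, were again at higher levels in CS, and Col4a1 was at a lower level, by log2 differences of 1.54 to 2.53 for Col1a1, Col1a2, Col3a1, Col6a1 and Col6a2 and of -0.46 for Col4a1. No member passed the adjusted limit in edgeR, where 0% of all genes tested were called. An unadjusted p under 0.05 was reached by 14 members (10 higher, 4 lower), or 36.8%, beside 10.9% of all genes tested. This count was 15 of 38 without CS F, 8 of 38 without CS M3 and 8 of 38 with sex as a covariate. It was 7 of 38 with a replicate block, which pairs same-numbered libraries. DESeq2 called 7 members, Col1a1, Col1a2, Col3a1, Col4a3, Col4a4, Col6a1 and Col6a2, each higher in CS, beside 2.47% of all genes it tested. The chronic groups did not overlap for 6 members that were higher and 3 that were lower in CS, or 15.8% and 7.89%, beside 3.92% and 5.49% of all genes tested. The median log2 fold change was 0.84 over the 38 members and 0.01 over all genes tested. The members' median was 0.49 without CS F, 0.382 with CS M3 and M4 as the only CS libraries and 0.491 with no filter on low counts. With the replicate block it was 0.023. The mural marker sum did not overlap either, with at most 46.6 CPM in chronic RA and at least 86.4 CPM in chronic CS. Its part in these values was not tested.

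Col3a1 was counted at 25.6, 9.88 and 18.4 CPM in chronic RA and at 41.3, 52.0, 67.4, 44.3 and 55.0 CPM in chronic CS. All 5 CS libraries lay above all 3 RA libraries. The log2 difference was 1.54 (SE 0.28, unadjusted p = 0.000201, edgeR's adjusted p = 0.187), and an exact two-sided permutation test gave p = 0.0357, the smallest that 5 against 3 libraries allow. Col1a1 was at 7.58, 3.43 and 4.62 CPM in RA and at 13.7, 24.4, 18.5, 19.2 and 14.3 CPM in CS, a log2 difference of 1.79 (SE 0.35, edgeR's adjusted p = 0.201). Col1a2 was at 18.04, 8.47 and 13.8 CPM in RA and at 30.9, 92.8, 57.9, 42.7 and 22.3 CPM in CS, a log2 difference of 1.87 (SE 0.50, edgeR's adjusted p = 0.288). These groups were apart as well.

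The values differed little between the shallow and the deep CS libraries for Col1a1 and Col3a1. Against the same RA libraries, the log2 difference of Col3a1 was 1.59 for CS F, M1 and M2 and 1.47 for CS M3 and M4, and that of Col1a1 was 1.87 and 1.68. For Col1a2 it was 2.19 and 1.27. Of the type V genes, Col5a1 was at 7.77, 3.86 and 2.56 CPM in RA and at 3.41, 9.91, 17.3, 8.79 and 6.67 CPM in CS, with overlap and a log2 difference of 0.96 (SE 0.51, edgeR's adjusted p = 0.515). Col5a3 had a log2 difference of 0.90 (SE 0.78, edgeR's adjusted p = 0.702). Col5a2 was at 20.3, 7.83 and 15.9 CPM in RA and at 24.2, 15.1, 7.48, 13.6 and 14.0 CPM in CS, a log2 difference of 0.01 (SE 0.36, edgeR's adjusted p = 0.995).

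Col6a2 was counted at 5.23, 1.70 and 2.74 CPM in chronic RA and at 9.82, 23.9, 29.9, 16 and 13.7 CPM in chronic CS, a log2 difference of 2.53 (SE 0.47, edgeR's adjusted p = 0.189). Col6a1 was at 10.6, 3.17 and 5.25 CPM in RA and at 13.2, 27.3, 11.97, 26.0 and 19.3 CPM in CS, a log2 difference of 1.63 (SE 0.41, edgeR's adjusted p = 0.262). Both were apart. Col6a3 was at 0.0288 to 2.35 CPM in RA and at 0.473 to 11.01 CPM in CS, and its groups overlapped through CS F, the lowest CS library. Col14a1 and Col12a1, which were apart in the acute arm, overlapped here, at 1.99 to 6.02 and 2.22 to 12.4 CPM in RA and 2.33 to 9.44 and 1.23 to 16.8 CPM in CS.

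Within the basement membrane class the chronic differences pointed in both directions. Col4a1 was counted at 784, 753 and 683 CPM in chronic RA and at 620, 447, 550, 580 and 496 CPM in chronic CS, a log2 difference of -0.46 (SE 0.20, edgeR's adjusted p = 0.452). Col4a2 was at 312, 290 and 307 CPM in RA and at 247, 227, 276, 247 and 218 CPM in CS, a log2 difference of -0.32 (SE 0.20, edgeR's adjusted p = 0.576). In both genes every CS library lay below every RA library, by a margin that was small beside the level itself.

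Col4a3, by contrast, was at 6.67, 8.18 and 7.004 CPM in chronic RA and at 10.9, 10.48, 14.2, 16.4 and 10.4 CPM in chronic CS, a log2 difference of 0.77 (SE 0.25, edgeR's adjusted p = 0.333). Its groups were apart and higher in CS. Its neighbour Col4a4, which starts next to it on chromosome 1 on the other strand, was at 0.547 to 2.10 CPM in RA and at 1.79 to 8.41 CPM in CS (log2 difference 2.09, SE 0.66, edgeR's adjusted p = 0.333), with an overlap through CS F. Alveolar epithelial markers, the sum of which was 257 to 481 CPM in chronic RA and 939 to 4646 CPM in chronic CS, moved with these genes, and their part was not tested. Col18a1 was at 447, 420 and 321 CPM in RA and at 338, 190, 175, 429 and 449 CPM in CS. The deep CS libraries M3 and M4 lay above the middle RA value, F lay within the RA range and M1 and M2 lay below it. The log2 difference was -0.32 (SE 0.34, edgeR's adjusted p = 0.758).

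Of the remaining abundant genes, Col23a1 was counted at 669, 930 and 646 CPM in chronic RA and at 542, 711, 513, 581 and 634 CPM in chronic CS, with overlap (log2 difference -0.33, SE 0.26, edgeR's adjusted p = 0.677). Col16a1, a fibril-associated collagen, was at 22.7, 20.4 and 21.6 CPM in RA and at 8.98, 10.3, 0.249, 19.4 and 13.8 CPM in CS. Its groups were apart and lower in CS, and CS M2 was far below the rest (log2 difference -1.03, SE 0.74, edgeR's adjusted p = 0.633). Col13a1, a transmembrane collagen, was at 2.59 to 6.05 CPM in RA and at 4.83 to 14.0 CPM in CS, a log2 difference of 0.97 (SE 0.40, edgeR's adjusted p = 0.424) with overlap.

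**Figure D3:**
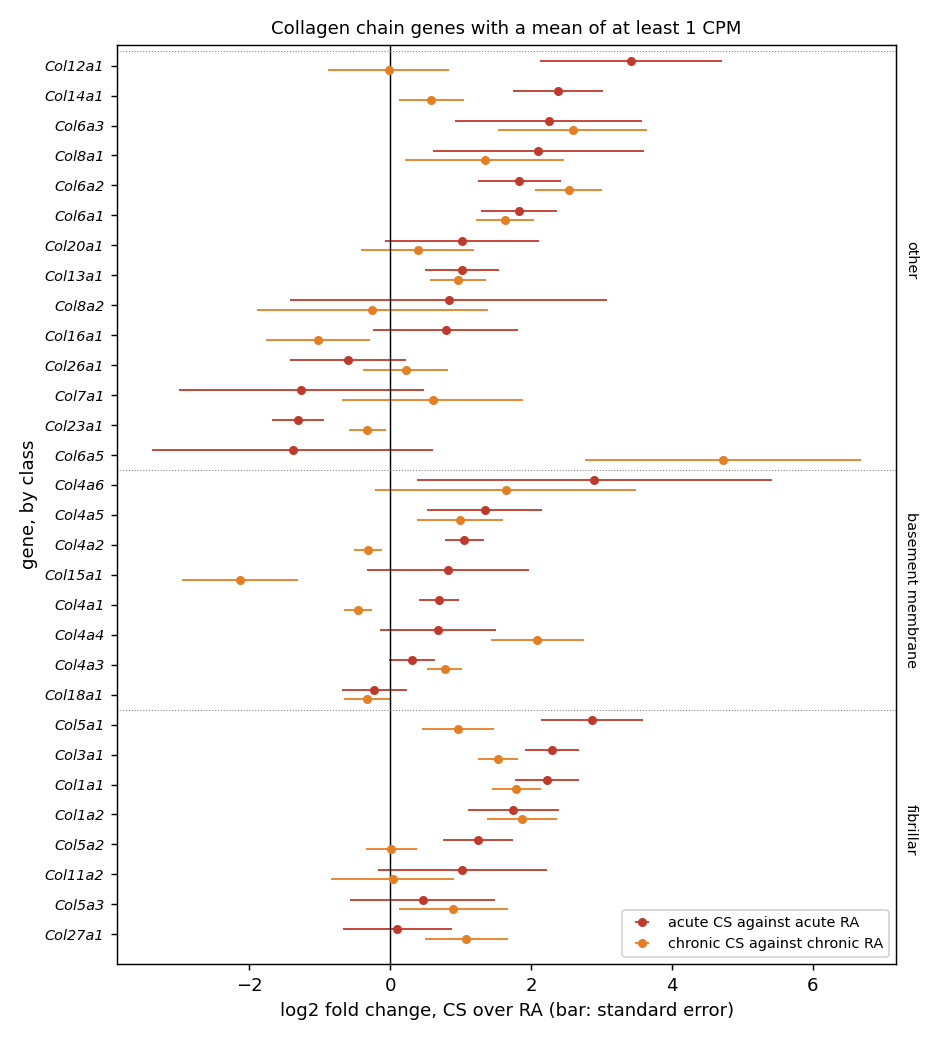
Log2 fold change of CS over RA (x axis, bars are standard errors) for the 30 collagen chain genes with a mean of at least 1 CPM (y axis, by class), in the acute and the chronic arm. Col1a1, Col1a2, Col3a1, Col6a1 and Col6a2 lie to the right of 0 in both arms, while Col4a1 lies at 0.69 in the acute and at -0.46 in the chronic arm and Col4a2 at 1.05 and -0.32.

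Whether the effect of smoke differed between the arms was tested as the acute minus the chronic log2 fold change in the same fit. No member was called by edgeR, beside 0.452% of all genes tested. An unadjusted p under 0.05 was reached by 6 members (15.8%, beside 11.9% of all genes tested), namely Col4a1, Col4a2, Col5a1, Col6a4, Col12a1 and Col14a1. This count moved to 3 of 36 without chronic CS M4 and to 9 of 38 without chronic CS F. The difference was 1.37 (SE 0.34, edgeR's adjusted p = 0.115) for Col4a2 and 1.152 (SE 0.35, edgeR's adjusted p = 0.195) for Col4a1. DESeq2 called both, with adjusted p-values of 0.00844 and 0.0427, beside 4.31% of all genes it tested. Without acute CS M, the library in which they were near the RA level, edgeR called them too (adjusted p = 0.00759 and 0.0162), together with Col23a1, again with 1 library in that group. For Col3a1 and Col1a1 the difference between arms was 0.77 (SE 0.45, edgeR's adjusted p = 0.566) and 0.44 (SE 0.55, edgeR's adjusted p = 0.838). The arms differ in exposure time, age and pooling together, and these cannot be told apart.

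The same holds for the room air libraries, of which the chronic ones are older and come from mice that were not pooled. None of the members was called between chronic and acute RA, beside 0% of all genes tested by edgeR. Of them 11 (3 higher, 8 lower in chronic RA) had an unadjusted p under 0.05, or 28.9% beside 7.01%. This count moved to 6 of 38 without chronic RA M1 and to 7 of 37 without chronic RA M2. Chronic RA was apart and higher for 5 members and lower for 10, or 13.2% and 26.3%, beside 17.7% and 17% of all genes tested. The genes of types I and III and the type VI genes Col6a1 and Col6a2 were at lower levels in chronic RA, with log2 differences of -1.45 for Col3a1 (SE 0.33), -1.26 for Col1a1 (SE 0.40), -1.45 for Col1a2 (SE 0.57), -1.11 for Col6a1 (SE 0.48) and -1.21 for Col6a2 (SE 0.52), while Col4a1 (0.71, SE 0.26), Col4a2 (0.61, SE 0.26) and Col23a1 (0.86, SE 0.34) were higher in chronic RA. Adjusted p-values from edgeR were 0.38 or more. DESeq2 called Col3a1 alone (adjusted p = 0.00516), beside 1.19% of all genes it tested. The fibroblast marker sum was also lower in chronic than in acute RA, at 515 to 606 CPM against 1133 and 1166 CPM. Npnt held 229 to 273 CPM of it in chronic RA and 549 and 548 CPM in acute RA. In that list Dcn was apart and higher in chronic RA (log2 difference 0.90), and Lum (0.94) and Pdgfra (0.32) overlapped. The mural marker sum overlapped as well, at 25.6 to 46.6 CPM in chronic RA and 25.8 and 52.6 CPM in acute RA. The alveolar epithelial sum was lower in chronic RA, at 257 to 481 CPM against 765 and 1082 CPM, beside log2 differences of -0.93 for Col4a3 and -1.67 for Col4a4. The lymphatic marker sum was higher in chronic RA, at 19930 to 22930 CPM against 15250 and 17070 CPM. The part of these markers was not tested. In level, Col3a1 in chronic CS (52.0 ± 10.3 CPM, SD, n = 5) lay near its value in acute RA (48.9 ± 1.04 CPM, SD, n = 2). This comparison shares its libraries with those of smoke against room air.

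Summed per length, the fibrillar genes stood at 10.99 and 15.5 FPKM in acute RA and 44.6 and 60.7 FPKM in acute CS. In the chronic arm the sum was 9.38, 4.90 and 6.71 FPKM in RA and 14.4, 20.96, 19.7, 14.8 and 13.0 FPKM in CS. The groups of each arm were apart. As a share of the members' summed FPKM, the fibrillar class made up 5.66% and 6.14% in acute RA, 13.1% and 22.1% in acute CS, 1.29% to 2.62% in chronic RA and 4.26% to 7.32% in chronic CS. The basement membrane class held 43.3% to 72.9% of the summed FPKM in every library and so remained the largest class in all but chronic CS M1, where the other genes, led by Col23a1, held 49.4%. The total over all 44 genes was 194 and 253 FPKM in acute RA, 342 and 275 FPKM in acute CS, 315.5 to 381 FPKM in chronic RA and 269 to 315.4 FPKM in chronic CS, and the highest chronic CS value lay only just under the lowest chronic RA value.

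**Figure D4:**
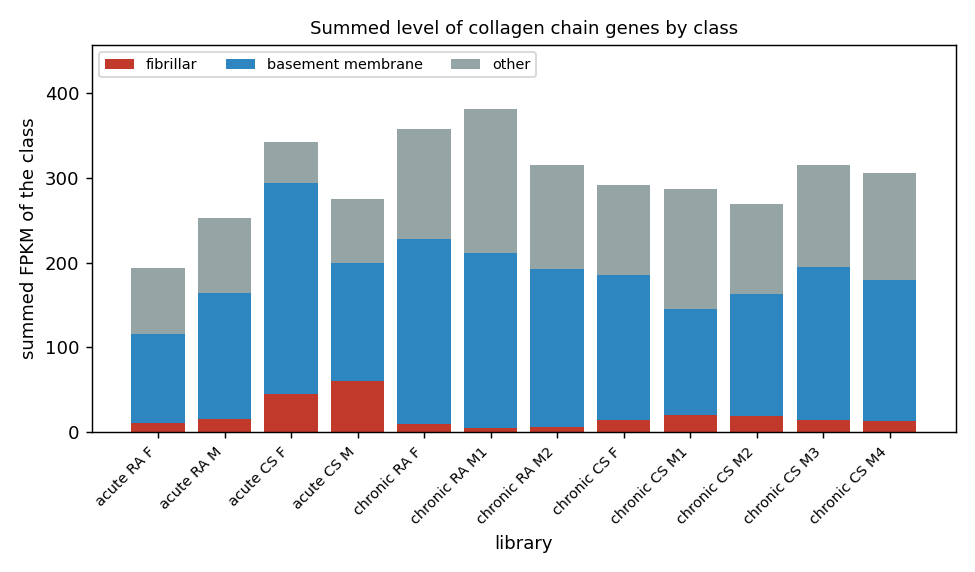
Summed FPKM (y axis, from 0) of the fibrillar, basement membrane and other collagen chain genes in each library (x axis), stacked. The fibrillar part is largest in acute CS, at 44.6 and 60.7 FPKM, and is at most 15.5 FPKM in any RA library.

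Median log2 fold changes of the members that passed the filter were 1.495 (acute) and 1.02 (chronic) for 8 fibrillar genes, 0.76 and 0.23 for 8 basement membrane genes and 1.02 and 0.59 for 22 others. The acute fibrillar median was 2.467 without RA M, and that of the others was 1.68 without RA F, 0.676 without CS F and 1.807 with no filter. With CS M3 and M4 as the only CS libraries the chronic medians were 0.508 for fibrillar, 0.511 for basement membrane and 0.225 for other genes. The acute basement membrane median was 0.216 without CS F and 1.252 without CS M. The chronic median of the others was 0.27 without CS F, 0.348 without RA M1 and 1.09 without RA F. With the replicate block the chronic medians turned to -0.374 for basement membrane and -0.003 for other genes. The 8 fibrillar genes had values above 0 in both arms, though the value was smaller than its SE for Col5a3 (0.46), Col11a2 (1.03) and Col27a1 (0.10) in the acute arm and for Col5a2 (0.01) and Col11a2 (0.04) in the chronic arm. The fibrillar sum was compared with the mesenchymal marker sums library by library. In units of the mural marker sum it was 4.12 and 2.92 in acute RA, 1.33 and 1.97 in acute CS, 1.38 to 3.45 in chronic RA and 1.04 to 2.44 in chronic CS. In units of the fibroblast marker sum it was 0.0912 and 0.135 in acute RA, 0.284 and 0.208 in acute CS, 0.0885 to 0.146 in chronic RA and 0.108 to 0.179 in chronic CS. Relative to mural markers the fibrillar sum was thus lower in acute CS than in acute RA. Of the fibroblast marker sum in acute RA, 549 and 548 CPM were Npnt, which stood at 207 and 289 CPM in acute CS (log2 difference -1.15, edgeR's adjusted p = 0.0685), while the other 11 markers had log2 differences above 0. Without Npnt, an alternative chosen after seeing the data, the fibrillar sum in units of fibroblast markers was 0.172 and 0.262 in acute RA and 0.329 and 0.232 in acute CS, and these ranges overlapped. In the chronic arm it was then 0.169 to 0.235 in RA and 0.123 to 0.278 in CS, and the mean difference of CS minus RA went from 0.0297 to -0.0149.

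**Figure D5:**
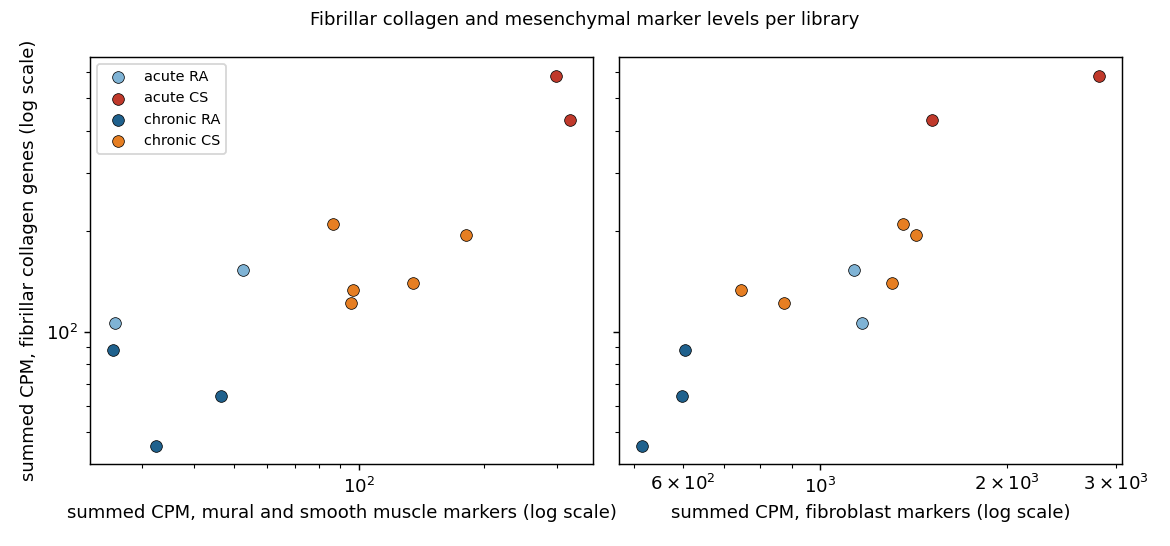
Summed CPM of the fibrillar collagen genes (y axis, log scale) against the summed CPM of 10 mural and smooth muscle markers (left) and 12 fibroblast markers (right, both log scale), with 1 point per library coloured by group. The acute CS points, with 323 and 298 CPM of mural markers, lie at the upper right of both panels.

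Members with few counts were not evenly spread over the libraries. Of the 6 that did not pass the filter, Col2a1, Col9a1 and Col11a1, which are the collagens of cartilage, were counted in acute CS F only, at 3.06, 2.49 and 1.02 CPM. Col9a2, a partner of Col9a1, was at 2.20 CPM in that library and at 0.746 CPM or less in the others. The 7 cartilage markers did not move one way in that library. Acan reached 1.71 CPM there and was at 0 in the other 11 libraries, and Sox9 (5.22 CPM) and Cnmd (0.766 CPM) were also at their highest. Comp was at its lowest, 9.23 CPM against 21.8 to 65.4 CPM elsewhere, Hapln1 was at 4.95 CPM, Matn3 at 0.0785 CPM and Matn1 at 0 as in all 12 libraries. The sum of the list was 21.9 CPM, the lowest of the 12 libraries. The part of cartilage cells in these counts was not tested. Col10a1 was counted in both acute CS libraries only (0.118 and 0.282 CPM), Col24a1 and Col19a1 in 1 of them each. The reverse was seen for Col6a5, which was at 3.16 and 4.64 CPM in acute RA, 1.197 and 1.78 CPM in acute CS and 0 to 0.094 CPM in chronic RA, and in chronic CS at 1.82 and 2.44 CPM in the deep libraries M3 and M4 but at most 0.105 CPM in F, M1 and M2. Col6a4 was counted in acute CS M and chronic RA F only, Col22a1 in chronic RA F and M2 only, and Col28a1 in acute CS and chronic CS M4 only, so their fitted fold changes rest on 1 or 2 libraries.

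Genes that act on collagen were read in the same tests, in which 2.75% of all genes were called higher and 0.723% lower in acute CS. The mural, blood endothelial and leukocyte marker sums were higher in the same libraries, and the lymphatic marker sum was lower. The part of these markers in the values of the lists was not tested. Of 22 genes for hydroxylation and folding of collagen chains, 1 was called higher in acute CS, Tmem38b, an ion channel gene of the endoplasmic reticulum (log2 fold change 1.25, edgeR's adjusted p = 0.0371), and none lower. Of 11 tested genes for processing and crosslinking, Loxl2, a lysyl oxidase-like enzyme gene, fell by 1.73 on the log2 scale (edgeR's adjusted p = 0.0248), from 38.4 and 26.3 CPM in acute RA to 12.2 and 7.27 CPM in acute CS. Of 20 matrix partners, 4 rose, Sparcl1, Bgn, Dcn and Lum, the last 3 being small proteoglycans that bind fibrils. Sparcl1 went from 34.0 and 25.7 CPM in acute RA to 223 and 198 CPM in acute CS (log2 fold change 2.82, edgeR's adjusted p = 0.0057). The list's single fall was that of the basement membrane linker Nid2 (-0.99, edgeR's adjusted p = 0.0443), which went from 380 and 425 CPM to 163 and 243 CPM.

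Of 13 collagen receptors, 5 rose in acute CS and none fell. They were the integrin genes Itga2 (log2 fold change 3.86, edgeR's adjusted p = 0.0194) and Itga1, the discoidin domain receptor gene Ddr2 (1.71, edgeR's adjusted p = 0.0288), the adhesion receptor gene Adgrg1 (1.61, edgeR's adjusted p = 0.0425) and Antxr1. Itga2 went from 2.08 and 2.86 CPM in acute RA to 52.4 and 19.4 CPM in acute CS. In the chronic arm none of the genes in these 4 lists was called by edgeR. The smallest p-values there were those of P4ha2 (log2 difference 2.003, edgeR's adjusted p = 0.22) and P3h4 (-0.64, 0.26) among hydroxylation genes, Pcolce2 (1.33, 0.288) and Lox (3.09, 0.316) in processing, Sparcl1 (1.92, 0.145) and Ogn (1.93, 0.15) among partners, and Mrc2 (2.38, 0.201) and Adgrg1 (0.82, 0.364) among receptors. Dcn and Lum also stand in the fibroblast marker list used above.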

How the data were processed

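The deposited files hold read counts per Ensembl gene for each of the 12 libraries, which the authors made from SMART-Seq v4 libraries of polyadenylated RNA by quality control with FastQC 0.11.9, trimming with Skewer, filtering with Minion, alignment to GRCm38 with STAR and its gene counting mode, without normalization. The annotation release and strand setting of the counting were not given in the sources used here, so reads of overlapping genes on opposite strands cannot be told apart. Of 52636 identifiers, 147 were not found in GENCODE M21, which gave names, positions and exon lengths. Groups come from the labels, and pooling and exposure from the methods of the study.

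The main tool was edgeR 4.0.16 under R 4.3.3 (filterByExpr, TMM, quasi-likelihood F-test in 1 fit of all 12 libraries by 4 groups), loaded with limma 3.58.1. Tables and plots used pandas 2.3.3, matplotlib 3.10.9 and Python 3.11.15. Standard errors are the log2 fold change divided by the square root of F. Genes with an adjusted p under 0.05 (Benjamini-Hochberg over 21440 genes) were called. The fit was tested on simulated counts. DESeq2 1.42.0, other size factors, no filter, only the groups compared, sex, a replicate block, robust estimation, leaving out each library, and the shallow or deep chronic CS libraries alone were the alternatives. No pair of libraries of a group agreed within sampling noise.

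Values in every library are given for called members and for the 3 genes of each class with the highest mean RA FPKM. Members with an unadjusted p under 0.05 and no overlap in the acute or the chronic comparison have values in that comparison's libraries. Col5a1, Col5a2, Col6a3, Col8a1, Col12a1, Col14a1, Col16a1 and Col6a5 are described in both arms or from their counts. For the 4 lists of genes that act on collagen, up to 3 called genes a list and direction are given with values, or the 2 with the smallest p. The members, the lists and these rules were chosen with earlier results of these data known.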

Additional observations from a re-analysis of the deposited data

Results flagged for a closer look

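In chronic CS, the group with 5 libraries, 36 members had counts to look for a library far from the rest, and 6 had one, beyond a critical gap of 0.71 of the group's range, where chance gives about 1 in 20 groups of normal values. This was 16.7% of the members, beside 13.5% of 21243 genes tested in the same way. In CS F this was Col15a1, a basement membrane collagen gene, at 4.726 CPM with 0.208 to 0.944 CPM in the other 4, so that its lower level in chronic CS than in RA (3.16 to 10.6 CPM) was not seen in F. Col6a6 was at 3.834 CPM in CS F and at 0.214 CPM or less in the others. In CS M2, Col26a1 was at 35.41 CPM with 4.14 to 9.90 CPM in the others. CS M4 stood apart for Col9a2 at 0.746 CPM, Col28a1 at 0.8817 CPM and Col25a1 at 0.06782 CPM, the last being 3 counts. Col28a1 and Col25a1 were at 0 in the other 4 libraries, where any count stands apart.

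The acute and chronic effects pointed in opposite directions in every library for Col4a2 and Col16a1, which were higher in acute CS and lower in chronic CS than in the matching RA libraries. Of all genes tested, 27.4% were apart and higher and 22.5% apart and lower in acute CS, and 3.92% and 5.49% in chronic CS. The share of all genes with opposite directions was not counted. The difference of the log2 fold changes was 1.367 for Col4a2 (edgeR's adjusted p = 0.115) and 1.817 for Col16a1 (edgeR's adjusted p = 0.66), and neither passed the limit.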

How the results depend on the processing

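Limits first: the acute arm has 2 pooled libraries a group, a single library can end its calls, and low members sit near the limit of counting. Against 2 members called in the acute comparison, DESeq2 called 10, no filter on low counts 6, a fit of only the groups compared 1 and the replicate block 0; leaving out 1 library gave 0 (without acute RA F or M) to 4 (without acute CS M). The genes called in all moved likewise, from 745 to 1926, 880, 139 and 73, and to between 3 and 973 on leaving out 1 library. DESeq2 called 7 members in the chronic comparison, 1 between the RA groups and 2 for the acute minus the chronic effect, where leaving out 1 library gave 0 to 3 (3 without acute CS M). The acute fibrillar median log2 fold change moved from 1.495 to 2.024 with no filter and between 1.452 and 2.467 on leaving out 1 library. That of the basement membrane class lay between 0.216 and 1.252, without acute CS F and without acute CS M. That of the others was 1.807 with no filter, 1.242 with sex, 1.459 with the replicate block, and 0.676 to 1.68 on leaving out 1 library. The members' chronic median lay at 0.023 with the replicate block and 0.49 without chronic CS F, against 0.837. In the chronic arm, CS M3 and M4 alone gave 0.508 for the fibrillar and 0.511 for the basement membrane class, and the replicate block turned the medians of the basement membrane class to -0.374 and of the others to -0.003. Without Npnt, a change of the fibroblast list made after seeing the data, the mean CS minus RA difference of the fibrillar over the fibroblast marker sum went from 0.133 to 0.0631 in the acute arm and from 0.0297 to -0.0149 in the chronic arm. Same-numbered libraries did not deviate together (correlations -0.042 to 0.069). With 2 libraries a group, deviations from the mean mirror each other, so the check cannot decide pairing in the acute arm. In the chronic arm the same-numbered correlations were -0.042 to 0.034, inside those of libraries with other numbers (-0.105 to 0.069). No pairing by number was seen there, and F and M are also the sexes. The cause of these changes was not tested.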
